A study of Mus musculus with 8 samples.

Results

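The EYA, SIX-family and DACH developmental regulators were followed in undifferentiated pleomorphic sarcomas (UPS) of the mouse hind limb. The 8 genes described, Eya1, Eya2, Eya3, Eya4, Six2, Six4, Six5 and Dach1, were taken by symbol from the 26667 genes of the counts table, and they were chosen with their values in these tumours already known. Tumours came from 4 KP mice (KP 5 to KP 8), whose conditional alleles include Trp53 fl/fl, and from 4 KPH2 mice (KPH2 1 to KPH2 4), which carried the same alleles together with Epas1 fl/fl. Epas1 encodes HIF-2α, a transcription factor stabilized when oxygen is low. In both genotypes tumours were started by injecting adenovirus expressing Cre (Ad-Cre) into the leg muscle of adult mice of a mixed 129/C57BL/6 background, so KP tumours carry every change of the KPH2 tumours but that of Epas1. Cre acts only in cells that the virus reaches, and host cells in a KPH2 section keep Epas1. The labels call the KP tumours wild type and the KPH2 tumours Epas1 -/-. RNA was extracted from paraffin sections of whole tumours and sequenced after ribosomal depletion, with 1 library per mouse. A section therefore holds host vessels, leukocytes and adjoining muscle beside the sarcoma cells, and in such bulk RNA fewer cells of a type and less RNA per cell cannot be told apart.

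SIX-family proteins are homeodomain transcription factors that bind DNA, EYA proteins are coactivators that carry a phosphatase domain but do not bind DNA themselves, and DACH proteins are corepressors that can join them. Downstream of or beside PAX factors, this network sets the fate of progenitors in the limb muscle, kidney, ear and eye. In the muscle lineage SIX-family and EYA proteins act on the genes of the myogenic regulators and of fast fibres, and in the kidney Eya1 and Six2 mark the progenitors of the nephron.

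Total counts ran from 6463221 to 13155510 per tumour, and all libraries of a group differed by more than sampling noise. KPH2 1 is missing from the authors' table of normalized values for 7 tumours, and the study set aside 1 knockout tumour as technically deviant. The main comparison is therefore that of the 4 KP tumours with KPH2 2, 3 and 4, and KPH2 1 is shown apart. Levels are counts per 1000000 counts of the library (CPM) after TMM scaling, which adjusts each library by a single factor for differences in composition. Epas1, the targeted gene, stood at 59.2, 83.2, 86.9 and 84.1 CPM in KP 5, 6, 7 and 8, at 32.6 CPM in KPH2 1, and at 53.4, 37.7 and 42.5 CPM in KPH2 2, 3 and 4. Every KPH2 tumour was below every KP tumour, but transcript remained in all of them. Its log2 fold change was -0.81 (SE 0.19, n = 4 and 3), with an adjusted p of 0.0742 by the quasi-likelihood test of edgeR with p adjusted by Benjamini-Hochberg, or -0.91 with an adjusted p of 0.117 when KPH2 1 was included. Mesenchymal genes of the labelled sarcoma (Vim, Col1a1, Pdgfra and others, 8 in all) were all counted and summed to between 17875 and 42448 CPM in the 8 tumours. In the main comparison 7 of these 8 genes had a log2 fold change below 0 (median -0.42). EdgeR called 1, lower in KPH2, beside 1.96% of all genes tested called in either direction.

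The network split by gene in the KPH2 tumours. Eya1, Eya2, Eya4, Six2 and Six4 were higher in KPH2 2, 3 and 4 than in every KP tumour, as were 8.73% of all genes tested, whereas Eya3, Six5 and Dach1 had overlapping levels in the groups. The plot of levels by tumour shows this split.

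**Figure D1:**
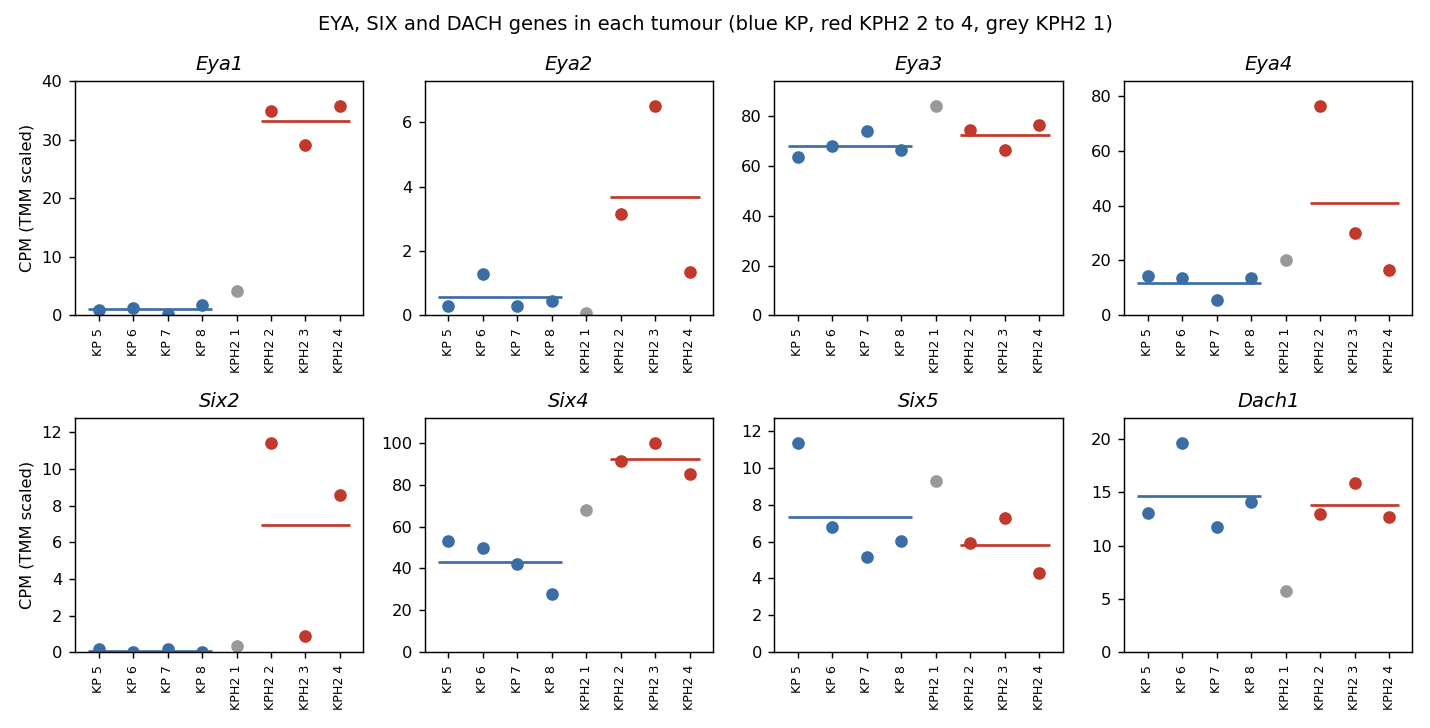
Level of each of the 8 genes in every tumour, in CPM after TMM scaling on a linear axis from 0, with 1 point per tumour and a line at the mean of the 4 KP tumours (blue) and of KPH2 2 to KPH2 4 (red). KPH2 1 is grey. The red points of Eya1, Eya2, Eya4, Six2 and Six4 lie above all blue points, and those of Eya3, Six5 and Dach1 overlap the range of the blue points.

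Eya1, a coactivator needed for the ear, kidney and limb muscle, had the largest fitted log2 fold change of the 7 genes tested. It is annotated on the minus strand of chromosome 1 of GRCm38.p6, 14168953 to 14311035 (Entrez Gene 14048). Its level was 0.891, 1.27, 0.296 and 1.74 CPM in KP 5, 6, 7 and 8, against 34.8, 29.1 and 35.7 CPM in KPH2 2, 3 and 4. These rest on 12, 9, 2 and 23 reads in the KP libraries and on 387, 291 and 317 reads in the KPH2 libraries, so the gene was close to absent in KP tumours and plainly transcribed in those 3 KPH2 tumours. KPH2 1 fell between the groups at 4.24 CPM (53 reads), above every KP tumour and far below the other KPH2 tumours. The fitted log2 fold change was 4.91 (SE 0.40), or 30.1-fold, and was 4.56 (SE 0.73) with KPH2 1 included. Ranked by fold change from the top, Eya1 stood at position 22 of the 14867 genes tested.

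Eya2, expressed in muscle precursors and sensory organs, was scarce everywhere. It lies on chromosome 2, 165595028 to 165771727. KP 5, 6, 7 and 8 held 0.297, 1.27, 0.296 and 0.453 CPM, and KPH2 2, 3 and 4 held 3.15, 6.50 and 1.35 CPM. The lowest of these KPH2 tumours exceeded the highest KP tumour by a narrow margin, on 12 against 9 reads. KPH2 1 had 1 read (0.0799 CPM) and was the lowest of all 8 tumours, so the groups overlapped once it was counted. The log2 fold change was 2.71 (SE 0.67) without KPH2 1 and 2.30 (SE 1.003) with it. With another tumour left out beside KPH2 1, it ran from 2.02 (without KPH2 3) to 3.33 (without KP 6).

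Eya4, a coactivator studied in the inner ear and the heart, was higher in KPH2 tumours by a variable amount. It occupies chromosome 10, 23102962 to 23350838. Its level was 14.2, 13.6, 5.49 and 13.6 CPM in KP 5, 6, 7 and 8, and 76.2, 30.02 and 16.5 CPM in KPH2 2, 3 and 4. KPH2 4 was little above the highest KP tumour while KPH2 2 was several times above it, and KPH2 1 lay inside the range of the other KPH2 tumours at 20.1 CPM. All 4 KPH2 tumours exceeded all 4 KP tumours, with a log2 fold change of 1.79 (SE 0.52), or 1.6001 (SE 0.52) over all 8 tumours. With a tumour of the main comparison left out, the log2 fold change ran from 0.98 (without KPH2 2) to 2.17 (without KPH2 4).

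Eya3, the most widely expressed EYA gene, was level across the tumours. It is found on chromosome 4, 132639025 to 132724765. KP tumours held 63.4, 67.8, 74.1 and 66.3 CPM and KPH2 2, 3 and 4 held 74.4, 66.3 and 76.5 CPM. The 2 ranges overlapped for most of their length, and KPH2 1 was highest at 83.9 CPM. The log2 fold change was 0.09 (SE 0.13), against 0.15 (SE 0.12) with KPH2 1.

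To compare the EYA genes with each other, CPM were divided by the length of each gene's merged exons in kilobases. On this scale Eya3 supplied 88.4% ± 4.30 (SD, n = 4) of the summed level of the EYA genes in KP tumours, Eya4 supplied 9.19% ± 3.37, Eya2 supplied 1.42% ± 1.11 and Eya1 supplied 0.989% ± 0.571. In KPH2 2, 3 and 4 the share of Eya1 was 16.7%, 17.9% and 22.5%, while that of Eya3 was 49.2%, 56.3% and 66.7%. Eya4 supplied 30.2% in KPH2 2 but only 8.59% in KPH2 4, within the KP range of 4.21% to 11.6%. KPH2 1 kept a composition near that of KP tumours, with 84.6% from Eya3 and 3.09% from Eya1. The summed level was 13.6 ± 0.474 CPM per kilobase in KP tumours (SD, n = 4), 22.7 ± 3.58 in KPH2 2 to KPH2 4 (SD, n = 3) and 17.6 in KPH2 1. The stacked plot of these levels shows a steady Eya3 portion in all 8 tumours and an added Eya1 portion in KPH2 2, 3 and 4, whereas the Eya4 portion is raised in KPH2 2 and KPH2 3 and close to that of other tumours in KPH2 4. With the longest RefSeq transcript as the length, an alternative added after the data were seen, Eya1 supplied 21.0%, 24.02% and 30.8% in KPH2 2, 3 and 4 against at most 2.5% in KP tumours, and the summed level was 30.8 ± 6.25 in KPH2 2 to KPH2 4 and 15.8 ± 0.524 in KP tumours.

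**Figure D2:**
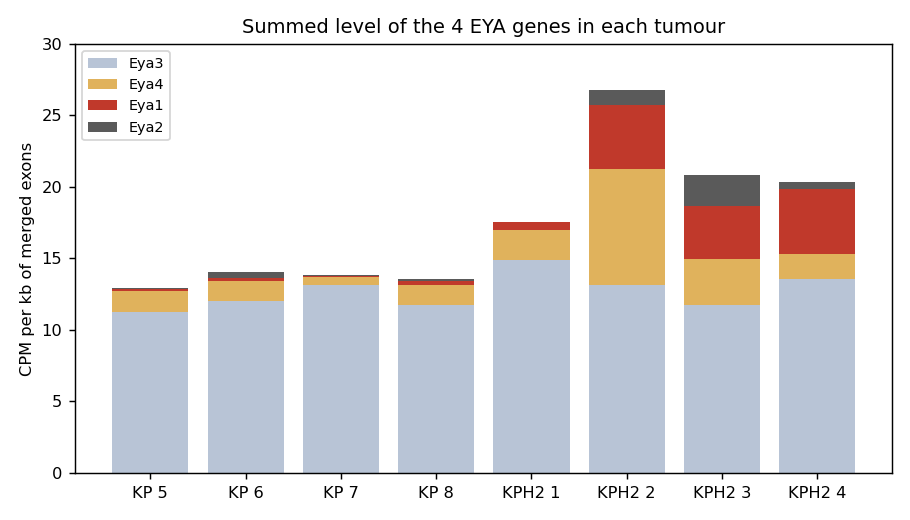
Level of the 4 EYA genes in each tumour, stacked, in CPM per kilobase of merged exons. The Eya3 portion spans 11.2 to 14.9 in all 8 tumours, while the Eya1 portion is at least 3.73 in KPH2 2, 3 and 4 and at most 0.222 in the KP tumours.

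Six2, the SIX-family factor that maintains nephron progenitors and is also expressed in limb tendon and mesenchyme, was nearly silent in KP tumours. It is annotated on chromosome 17, 85662736 to 85688254. Its reads numbered 2, 0, 1 and 0 in KP 5, 6, 7 and 8, or at most 0.149 CPM. It had too few for the low-count filter of edgeR, so it was not tested in the main fit. KPH2 2, 3 and 4 held 127, 9 and 76 reads, or 11.4, 0.901 and 8.57 CPM, and KPH2 1 held 4 reads (0.320 CPM). KPH2 3 was much closer to KPH2 1 than to the other KPH2 tumours, although all 4 lay above every KP tumour. Pooled over libraries, 212 reads in KPH2 2 to KPH2 4 against 3 in KP tumours gave a CPM ratio of 95.6, with a 95% exact interval of 32.3 to 467 that covers counting error only and not the spread between tumours. For KPH2 1 against the same 3 reads the ratio was 4.32, with an interval of 0.731 to 29.5 that includes no difference.

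Six4, a SIX-family factor of the myotome that acts in muscle formation, was abundant in both groups. Chromosome 12, 73099609 to 73114031, holds the gene. Its level was 53.3, 49.8, 42.1 and 27.9 CPM in KP 5, 6, 7 and 8, and 91.3, 100.1 and 85.3 CPM in KPH2 2, 3 and 4. KPH2 1 stood between them at 67.9 CPM, above every KP tumour. The log2 fold change was 1.09 (SE 0.22), or 2.13-fold, and was 0.99 (SE 0.22) over all 8 tumours.

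Six5, which lies beside the myotonic dystrophy kinase gene, did not separate the groups. It spans chromosome 7, 19094544 to 19098549. Levels of 11.4, 6.79, 5.19 and 6.04 CPM in KP tumours overlapped with 5.94, 7.31 and 4.28 CPM in KPH2 2, 3 and 4 and with 9.27 CPM in KPH2 1. The log2 fold change was -0.34 (SE 0.34), or -0.14 with KPH2 1.

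Dach1, the corepressor of the set, was also alike in the main groups. Its annotated span is chromosome 14, 97786846 to 98169765. KP tumours held 13.1, 19.7, 11.7 and 14.1 CPM and KPH2 2, 3 and 4 held 12.96, 15.9 and 12.7 CPM. KPH2 1 was the exception, below all other tumours at 5.75 CPM. The log2 fold change was -0.08 (SE 0.23), and -0.31 (SE 0.31) when KPH2 1 was included.

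RefSeq promoter sequence of GRCm38.p6, from 250 bases before to 50 after each annotated start, was matched for 6 of the 8 genes, in 8 windows. Eya1 and Eya2 were not matched. The windows were searched on both strands for the HIF core letters ACGTG and GCGTG and for MEF3, the SIX-family binding motif, spelled TCAGGTTTC, and no match overlaps a match to another of these motifs. The Six4 window that holds all 3 is shown first, since Six4 is itself a SIX-family gene and was higher in KPH2 tumours. Eya4, also higher, and Eya3, which was level, follow for comparison. Only matches before the start are shown. The Eya3 window holds another GCGTG match, 18 bases after the start. Capitals mark the matched letters, in 30-base stretches read 5′ to 3′ on the strand of the gene. The motif stands as spelled only in the GCGTG stretch of Six4, and in the others it lies on the opposite strand.
Six4 MEF3, chr12:73113325-73113354, minus strand: tggcctggggGAAACCTGAtcggccagatc
Six4 ACGTG, chr12:73113413-73113442, minus strand: aaccggaggagtCACGTtgggggaacggca
Six4 GCGTG, chr12:73113340-73113369, minus strand: ttaatggtgactGCGTGgcctgggggaaac
Eya4 GCGTG, chr10:23350160-23350189, minus strand: cgcggcgcggcgCACGCtccggcggctccc
Eya3 GCGTG, chr4:132638904-132638933, plus strand: cagggagtcaatCACGCaactgggtctgcg
Six4 has 2 windows in the table, with starts that both lie inside the annotated span of the gene. Counted from the start of the window shown, the first matched base in Six4 lies 99 bases before it for MEF3, 185 before it for ACGTG and 112 before it for GCGTG. From the start of the other window, the same ACGTG site lies 5 bases before. Among all 32851 promoter windows, 0.429% held the MEF3 letters, 19.6% held ACGTG and 32.4% held GCGTG. Among the 6 genes, ACGTG was found in Six4 alone, and GCGTG in Six4, Eya4 and Eya3. The windows of Six2, Six5 and Dach1 held none of these letters. A match describes the letters only, and binding was not measured in these tumours.

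Read over the set, the quasi-likelihood test of edgeR with p adjusted by Benjamini-Hochberg called 2 of the 7 genes tested, Eya1 and Six4, both higher, beside 1.96% of all 14867 genes tested and 1.24% called higher. Of the 8 genes, 5 had groups that did not overlap and were higher in KPH2 2 to KPH2 4, beside 8.73% of all genes tested. DESeq2 called 5 of the 8 (Eya1, Eya2, Eya4, Six2 and Six4), beside 7.25% of genes. The median log2 fold change was 1.09 over the 7 genes and -0.02 over all genes tested. These genes were picked from the same comparison, so the counts describe the choice and carry no evidence of their own. As each of the 7 tumours was left out in turn, Eya1 was called every time and Six4 only without KP 5. With KPH2 1 included, no member and only 1 gene in all (0.00675%) passed the threshold, while Eya1, Eya4, Six2 and Six4 still lay wholly above the KP tumours, beside 3.76% of genes tested.

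Within the KP tumours, where the order of the genes was not used to choose them, Eya3 led at 12.02 ± 0.802 CPM per kilobase (SD, n = 4). Six4 followed at 3.99 ± 1.04, Six5 at 2.44 ± 0.917, Dach1 at 2.001 ± 0.477 and Eya4 at 1.24 ± 0.442. Eya2 at 0.196 ± 0.158, Eya1 at 0.134 ± 0.0780 and Six2 at 0.0350 ± 0.0404 came last. The KP ranges of Six4 and Six5, of Six5 and Dach1, of Eya2 and Eya1 and of Eya1 and Six2 overlapped. Six4 was still above Six5 within each tumour, at 4.91, 4.59, 3.88 and 2.57 in KP 5, 6, 7 and 8. Six5 was at 3.78, 2.26, 1.73 and 2.01 in the same tumours. The order within the other pairs was not the same in every KP tumour. In KPH2 2 to KPH2 4 Eya3 and Six4 stayed first at 12.8 ± 0.949 and 8.50 ± 0.684, and Eya1 moved from place 7 to place 4 at 4.26 ± 0.459 (SD, n = 3), with a range that overlapped those of Eya4 in place 3 and Six2 in place 5. With the longest RefSeq transcript as the length, Dach1 came before Six5 and Eya1 before Eya2 in the KP order, each pair having overlapping ranges, and the range of Six4 no longer met that of the next gene. In KPH2 2 to KPH2 4 Six4 then came first at 14.4 ± 1.16 and Eya3 next at 13.96 ± 1.03, with overlapping ranges, and Eya1 went from place 6 to place 4 at 7.61 ± 0.821.

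Sums of skeletal muscle markers separated the groups of the main comparison, though not every single marker did. A list of 28 muscle fibre markers, all counted in every tumour, summed to 3341, 2372, 1826 and 3156 CPM in KP 5, 6, 7 and 8, to 1507 CPM in KPH2 1, and to 12542, 19546 and 4315 CPM in KPH2 2, 3 and 4. A list of 7 satellite cell and myoblast markers summed to between 39.2 and 139 CPM in KP tumours, to 42.1 CPM in KPH2 1 and to between 220 and 465 CPM in KPH2 2 to KPH2 4. Both sums were thus lowest or nearly so in KPH2 1 and higher in the other KPH2 tumours than in every KP tumour. Of the 28 fibre markers 15 lay wholly higher in KPH2 2 to KPH2 4, beside 8.73% of all genes tested. EdgeR called 3 of the 28, all higher, beside 1.24% of all genes called higher. Of the 7 satellite cell and myoblast markers 4 lay wholly higher, and edgeR called 1 of the 5 tested. With KPH2 1 included, none of either list was called. Of the satellite cell genes, Pax7 was at 0 in KP 7 and KPH2 1, at 2.69 CPM in KP 6, at 4.10 CPM in KPH2 3, but at only 0.360 and 0.225 CPM in KPH2 2 and KPH2 4, below KP 6, so it did not follow the sum of its list. Nor did Calcr, and Chrna1, a muscle acetylcholine receptor subunit, made up much of the sum, with 31.3 CPM in KP 5, 114.6 CPM in KP 7 and, inside the KP range, 112.8 CPM in KPH2 4. Markers of Schwann cells, endothelium, macrophages and adipocytes had sums that overlapped in the 7 tumours of the main comparison, although single genes moved. All 8 macrophage genes had a log2 fold change below 0 (median -0.58, 4 at an unadjusted edgeR p under 0.05). So had 6 of 8 endothelial genes (median -0.50, 3 at an unadjusted edgeR p under 0.05). None of either list was called by edgeR. DESeq2 called 1 macrophage and 2 endothelial genes, all lower, beside 7.25% of all genes called in either direction. In those lists 1 macrophage and 2 endothelial genes lay lower in KPH2 2, 3 and 4 than in every KP tumour. The share of all genes that did so is not given here. Of the Schwann cell markers 1 of 6 tested was called by edgeR, higher, beside 1.24% of all genes called higher. The Schwann cell sum was 23.5 to 35.8 CPM in KP tumours and 31.6 to 37.5 in KPH2 2 to KPH2 4, and the endothelial sum was 283 to 560 and 302 to 310 CPM. The macrophage sum was 2331 to 4379 and 1719 to 2568 CPM, and the adipocyte sum was 9.28 to 34.0 and 10.6 to 11.3 CPM.

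The members differed in how they ran beside these markers. Eya1 was as high in KPH2 4, with a muscle fibre sum of 4315 CPM, as in KPH2 2 and KPH2 3, whose sums were 12542 and 19546 CPM, and it was 0.891 CPM in KP 5, whose sum of 3341 CPM was near that of KPH2 4. The satellite cell and myoblast sum did differ between these tumours, at 39.2 CPM in KP 5 and 220 CPM in KPH2 4. Six4 was at 85.3 CPM in KPH2 4 and 53.3 CPM in KP 5. Eya2 and Eya4, in contrast, had in KPH2 4 levels close to the highest KP tumour. With the mean log2 CPM of the fibre markers as a covariate over the 7 tumours, the log2 fold change was 4.84 (SE 0.57) for Eya1 and 1.02 (SE 0.41) for Six4, but 1.10 (SE 1.16) for Eya2 and 0.25 (SE 0.85) for Eya4. Six5 moved to -1.19 (SE 0.53). With the same covariate over all 8 tumours, a fit added after the data were seen, Eya1 was at 3.63 (SE 0.68), Six4 at 0.82 (SE 0.26), Eya4 at 0.86 (SE 0.48) and Eya2 at -0.16 (SE 0.95). In the fit of 7 tumours no member and 3 genes in all passed the threshold, and the part of muscle tissue in each value was not tested further.

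**Figure D3:**
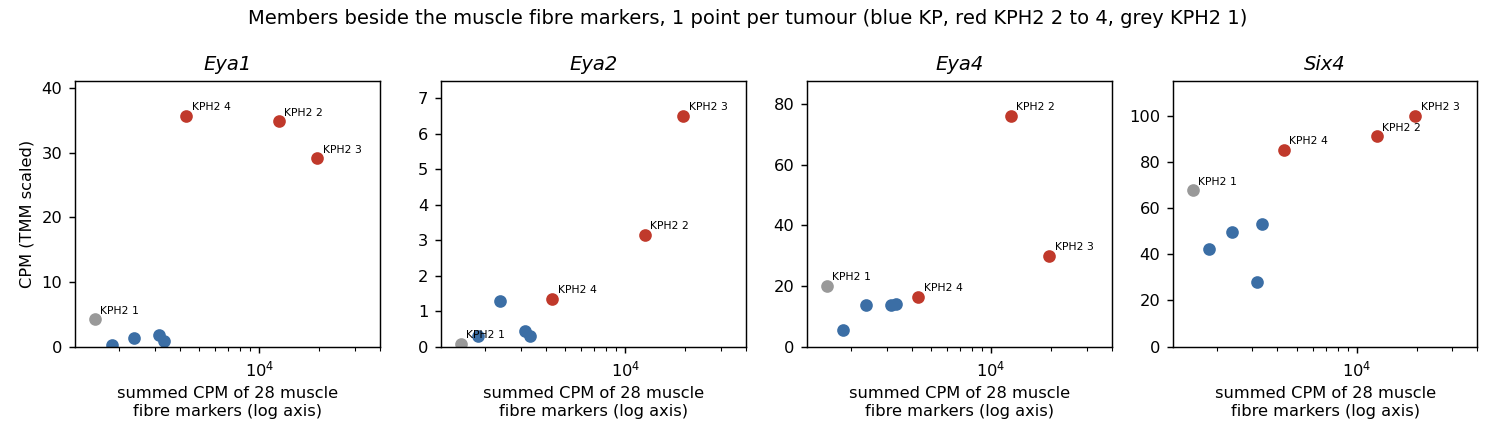
Level of Eya1, Eya2, Eya4 and Six4 in CPM (linear axis) against the summed CPM of 28 muscle fibre markers (log axis), with 1 point per tumour. KPH2 4 lies beside the KP tumours on the marker axis, with Eya1 at 35.7 CPM and Six4 at 85.3 CPM above all of them and Eya2 and Eya4 close to them.

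**Figure D4:**
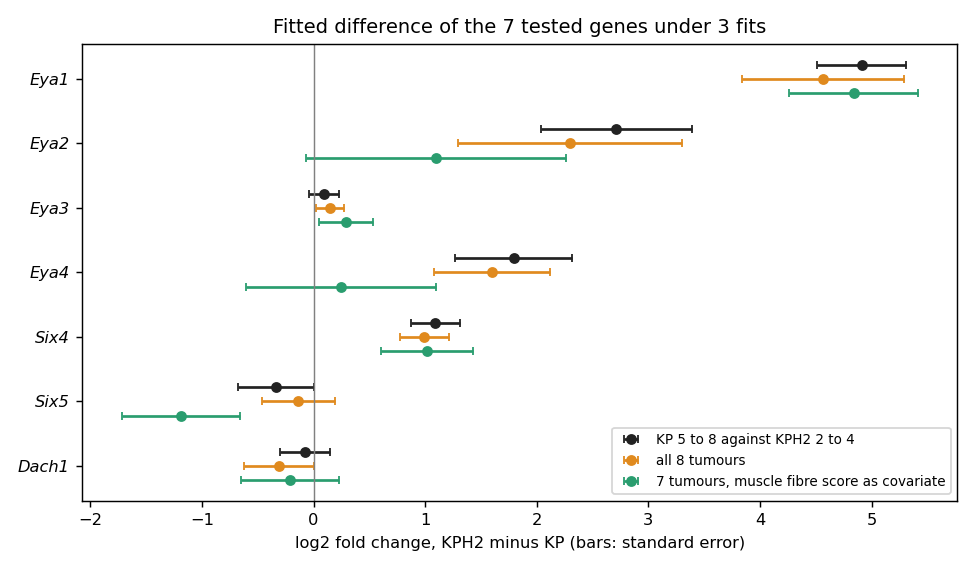
Fitted log2 fold change, KPH2 minus KP, of the 7 tested genes, with bars of 1 standard error, for KP 5 to 8 against KPH2 2 to 4, for all 8 tumours, and for the 7 tumours with the muscle fibre score as a covariate. Eya1 lies between 4.56 and 4.91 and Six4 between 0.99 and 1.09 in these 3 fits, while Eya4 goes from 1.79 to 0.25 with the covariate.

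Other genes of the network were drawn from a list of 18, the PAX factors, the remaining SIX-family and DACH genes and cofactors of their proteins, of which 11 passed the low-count filter. None was called by edgeR, with 2 at an unadjusted p under 0.05, and DESeq2 called 1, lower in KPH2, beside 7.25% of all genes. The median log2 fold change was 0.17, against -0.02 for all genes tested. Tle4, a Groucho corepressor, was at 53.2, 35.4, 25.9 and 26.1 CPM in KP tumours, 21.2 CPM in KPH2 1 and 11.8, 13.7 and 15.9 CPM in KPH2 2, 3 and 4. Every KPH2 tumour lay below every KP tumour, with a log2 fold change of -1.35 (SE 0.29) and an adjusted p of 0.0572 by the quasi-likelihood test of edgeR with p adjusted by Benjamini-Hochberg. Dach2, the relative of Dach1, had a log2 fold change of -0.94 (SE 0.67) and an adjusted edgeR p of 0.514. The PAX factors were too scarce to test.

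Genes described as targets of SIX-family and EYA proteins in muscle were given by a list of 13, all of which passed the filter. Of them 3 were called, all higher in KPH2 2 to KPH2 4, beside 1.24% of all genes called higher. The log2 fold change was above 0 for all 13 and for 7143 of all 14867 genes tested, the median being 2.04 beside -0.02 for all genes tested. The list shares 8 genes with the fibre markers and 2 with the satellite cell markers. Eno3, the muscle enolase, rose with a log2 fold change of 2.98 (SE 0.31) and an adjusted p of 0.0092 by the quasi-likelihood test of edgeR with p adjusted by Benjamini-Hochberg. Its level was 27.3, 24.5, 12.9 and 18.0 CPM in KP tumours, 16.8 CPM in KPH2 1 and 187, 197 and 108 CPM in KPH2 2, 3 and 4. Myf6, a late myogenic regulator, rose by the same edgeR test (log2 fold change 2.51, SE 0.36, adjusted p 0.0212), from at most 1.51 CPM in KP tumours to 8.01, 7.91 and 4.62 CPM in KPH2 2, 3 and 4. It was the only one of the 3 with KPH2 1 above the KP range, at 1.92 CPM. Myf5, an early myogenic regulator, rose as well (log2 fold change 5.59, SE 1.04, adjusted edgeR p 0.0418), from at most 2.41 CPM in KP tumours to 47.9, 15.9 and 18.4 CPM, and had no read in KPH2 1. Myod1 and Myog, which drive myoblast commitment and fusion, had log2 fold changes of 3.88 (SE 0.92) and 3.82 (SE 1.01) and adjusted edgeR p of 0.0774 and 0.105. As each tumour was left out in turn, Eno3 was called every time, Myf6 in all fits but those without KP 6, KP 7 or KPH2 2, and Myf5 only in that without KP 6. With KPH2 1 included no gene of this list passed, and with the fibre score as a covariate none passed. In that fit the log2 fold change was 6.02 (SE 1.80) for Myf5, 2.10 (SE 0.39) for Eno3 and 1.55 (SE 0.48) for Myf6, while the median of the list, 8 of whose 13 genes are in the score, was -0.58.

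Targets described outside muscle formed a list of 8, of which 6 passed the filter and 1 was called, beside 1.96% of all genes called. Ezr, which encodes ezrin, the linker between membrane and actin, rose with a log2 fold change of 1.56 (SE 0.20), or 2.94-fold, and an adjusted p of 0.0173 by the quasi-likelihood test of edgeR with p adjusted by Benjamini-Hochberg. It stood at 31.6, 37.2, 36.9 and 33.4 CPM in KP tumours and at 95.6, 77.8 and 133.6 CPM in KPH2 2, 3 and 4. KPH2 1, at 79.7 CPM, was inside the range of the other KPH2 tumours, yet over all 8 tumours the adjusted edgeR p was 0.0681 at a log2 fold change of 1.48. Its log2 fold change with the fibre score as a covariate was 2.16 (SE 0.23), with an adjusted edgeR p of 0.0629. Igfbp5, an insulin-like growth factor binding protein, and Slc12a2, a chloride cotransporter, had log2 fold changes of 0.93 and -0.57 and adjusted edgeR p of 0.558 and 0.0877. The median of the list was 0.05.

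**Figure D5:**
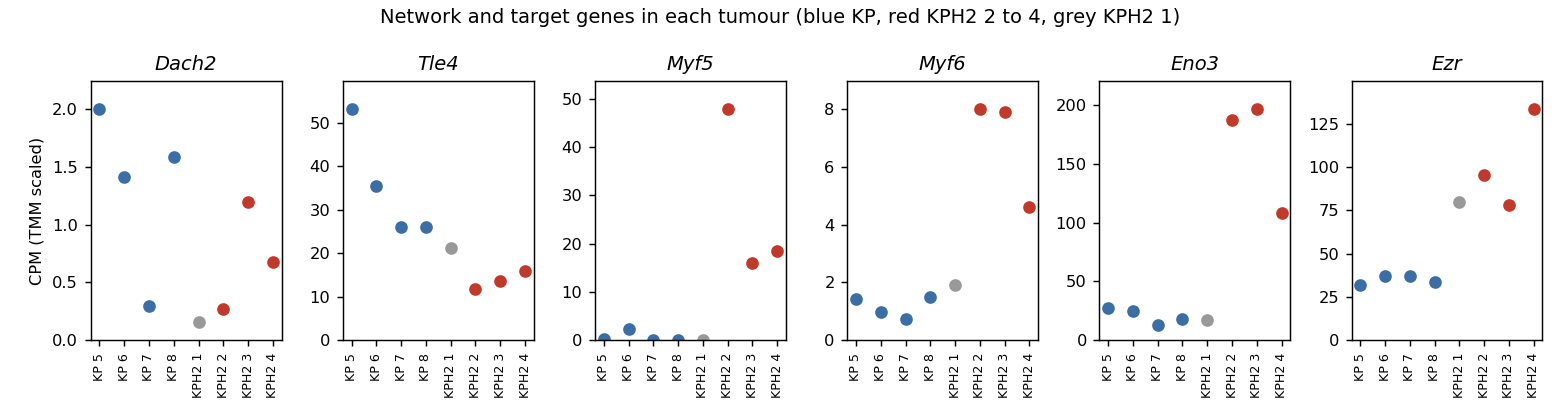
Level of Dach2, Tle4, Myf5, Myf6, Eno3 and Ezr in every tumour, in CPM after TMM scaling on linear axes from 0, with KP in blue, KPH2 2 to KPH2 4 in red and KPH2 1 in grey. KPH2 1 lies with the KPH2 tumours for Ezr at 79.7 CPM and within or near the KP tumours for Myf5, Myf6 and Eno3.

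By pattern over the 8 tumours, the genes outside the set most like Eya1 on log2 CPM included Gm16534 (Pearson's r 0.983), Pank1 (0.983) and Hook1 (0.971). Each had KPH2 1 between the KP tumours and the other KPH2 tumours, and the values are given as a measure of likeness that rests on the same libraries. Hook1, a microtubule adaptor, held 0.889 to 1.78 CPM in KP tumours, 2.08 CPM in KPH2 1 and 9.41 to 11.8 CPM in KPH2 2 to KPH2 4, and Pank1, a pantothenate kinase, held 5.19 to 6.37, 7.35 and 10.4 to 11.7 CPM.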

How the data were processed

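RNA-seq libraries of 8 tumours, 4 KP and 4 KPH2, were analysed from raw counts per RefSeq gene, which the authors deposited after alignment to GRCm38 with STAR 2.4 and counting of unique alignments with htseq-count (HTSeq 0.6.1), with no normalization. The deposited log2 values, made by the authors with the regularized log transformation of DESeq2 over 7 tumours, served as an alternative input only. Whether reads were counted by strand is not given in the sources used here. The submitters' processing notes also name CASAVA 1.8.2.

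Counts were fitted with edgeR 4.0.16 in R 4.3.3, using TMM normalization, its low-count filter (minimum count 10, minimum total 15), robust quasi-likelihood estimates and no covariate. The p-values were adjusted by Benjamini-Hochberg over all genes tested, and genes under 0.05 were called. Log2 CPM used a prior count of 2. Replicates are tumours of separate mice. The biological coefficient of variation was 0.313 over the 7 tumours and 0.347 over all 8. Depth limits the scarce genes most, and intervals of read ratios (exact, 95%) cover counting error only.

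Members and gene lists were chosen with earlier results of these data known. Named are the 8 members, Epas1, the called genes and the 3 with the largest change of each list, and, of the 5 genes most like Eya1, those reported. Some genes and 1 allele set by the rule or design are not reported here. Vim, Col1a1, Pdgfra, Pax7, Calcr and Chrna1 are named as markers, the last 3 after their values were seen. Per-kilobase levels used merged GENCODE exons, or the longest RefSeq transcript. Positions and promoters are RefSeq's for GRCm38.p6. Alternatives were all 8 tumours, other normalizations and filters, each tumour left out, DESeq2 1.42.0, limma 3.58.1 on the rlog values, and a fibre score covariate. The covariate fit over all 8 tumours and the EYA shares with RefSeq lengths were added after seeing the data.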

Additional observations from a re-analysis of the deposited data

Results flagged for a closer look

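Among 18 groups of 4 tumours examined for a value standing far from the rest (the members and Epas1 in each genotype, on log2 CPM), 3 held one, where chance flags about 1 in 20. Eya1 in KPH2 1 stood at 2.15 log2 CPM, below the other KPH2 tumours by 0.903 of the range of the group. Eya4 in KP 7 was at 2.51 log2 CPM, below the other KP tumours by 0.954 of their range. Epas1 in KP 5 was at 5.89 log2 CPM, below the other KP tumours by 0.887 of their range.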

How the results depend on the processing

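The number of genes called was 292. It was 1 over all 8 tumours, 3 with the muscle fibre score as a covariate, 0 with that score over all 8 tumours and 1178 by DESeq2, and it ran from 55 (without KPH2 2) to 349 (without KP 5) as each tumour was left out, with 130 without KP 6, 73 without KP 7, 130 without KP 8, 159 without KPH2 3 and 153 without KPH2 4. Members called were 2, against 0 over all 8 tumours, 0 and 0 with the fibre score over 7 and 8 tumours, 1 with upper-quartile normalization or a mean count of at least 50, 5 by DESeq2, and 1 to 2 with a tumour left out. With no low-count filter 3 members were called, Eya1, Six2 and Six4. Eya1 was called in each fit with a tumour left out, Six4 only in that without KP 5 and Six2 only in that without KPH2 3. Network genes called went from 0 to 1, Tle4, by DESeq2 or with no low-count filter, and to 0 to 1 with a tumour left out (Tle4, without KP 5). Muscle targets called went from 3 to 0 over all 8 tumours or with the fibre score in either fit, 9 by DESeq2 and 1 to 3 with a tumour left out, Eno3 alone without KP 7 or KPH2 2. Other targets called went from 1 to 0 over all 8 tumours or with the fibre score in either fit and 2 by DESeq2, and stayed 1 with a tumour left out. For these counts the cause was not tested.

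Over 18 settings the log2 fold change was 2.60 to 5.29 for Eya1, 0.73 to 1.22 for Six4, 0.25 to 2.17 for Eya4, 0.05 to 0.29 for Eya3, -1.19 to -0.03 for Six5 and -0.80 to 0.09 for Dach1, and over 17 settings -0.16 to 3.33 for Eya2. The lowest values of Eya1 and Six4 are differences of the shrunken rlog values, on another scale, and the next lowest were 3.63 and 0.82. The sign turned only for Eya2, at -0.16 with the fibre score over all 8 tumours, and for Dach1, at 0.092 without KP 6 (-0.19 to 0.092 as each tumour was left out). The Eya3 level in KP tumours was 13.1 CPM per kilobase with RefSeq lengths and 11.7 to 12.3 with a KP tumour left out. No paired analysis was made, since each tumour came from a separate mouse and the labels match no KP tumour to a KPH2 tumour.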
